A study of Mus musculus with 6 samples.

Results

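Genes of the complement and coagulation systems were followed in stromal cells sorted from mouse bone marrow: 38 genes were listed by name, and 34 of them were measured among the 19938 genes tested. The list was divided by role into 11 complement components, 7 complement regulators and receptors, 15 coagulation genes and 5 fibrinolysis genes. Each gene was represented by the probe set that carried that 1 gene symbol, and where several did, by the one with the highest mean over the 6 arrays. C3, Cfd, F2rl1 and Serpine2 had no probe set named by the annotation used here and were not analysed here.

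CD73+CD105+ cells (3 samples) were compared with CD73+CD105- cells (3 samples). Both were sorted from dissociated primary bone marrow as cells lacking CD45, carried by leukocytes, and Ter119, carried by red cell precursors. Both were also positive for CD73, an enzyme on the cell surface that releases adenosine, so they differ by design in CD105 (endoglin), an accessory receptor of the TGF-beta family. The labels give no strain, age, genotype or treatment, name the samples biological replicates and do not state the number of animals, so that the p-values cover only the spread among these 6 samples, which may be technical. Total RNA of each sample was hybridised to 1 array, and values are log2 expression from RMA, a method that corrects background, aligns the arrays and summarises probes into probe sets. The number of arrays limits the precision. Every difference is the CD73+CD105+ value minus the CD73+CD105- value, in log2 units, and a gene was said to rise or fall where limma's p, adjusted by Benjamini-Hochberg over all 19938 genes, was under 0.05.

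Complement is a cascade of plasma proteases that tags and lyses cells and calls in leukocytes through small cleaved peptides. Coagulation is a second protease cascade that ends in thrombin and fibrin, and fibrinolysis dissolves that fibrin through plasmin. Most of the plasma proteins come from the liver, but stromal and endothelial cells also make some of them, and the lining of vessels carries inhibitors of both cascades on its surface.

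The sorted populations were checked on the same arrays. Eng, which encodes CD105, averaged 8.06 ± 0.25 in the CD73+CD105+ samples, against 6.30 ± 0.21 in the CD73+CD105- samples (SD, n = 3 each), and array medians lay between 6.27 and 6.35. Nt5e, which encodes CD73, averaged 10.37 in the CD73+CD105+ samples and 10.63 in the CD73+CD105- samples. Its groups did not overlap, and the difference of -0.26 did not pass (limma adjusted p = 0.183). All 12 endothelial markers rose, and their summed level on each array was 4053 to 5428 in CD73+CD105+ and 620 to 736 in CD73+CD105- cells (linear units). Of 10 reticular stroma markers 5 rose, with sums of 6752 to 7437 in CD73+CD105+ and 4019 to 4159 in CD73+CD105- cells. Of 10 adipocyte markers 3 rose, with sums of 3986 to 4282 in CD73+CD105+ and 1216 to 1317 in CD73+CD105- cells. Fabp4, a fatty acid carrier that endothelial cells also make, carried most of that gap, averaging 11.09 in the CD73+CD105+ arrays and 6.96 in the CD73+CD105- arrays. Without it the adipocyte sums were 1978 to 1993 in CD73+CD105+ and 1105 to 1194 in CD73+CD105- cells, and Plin1, Lep, Cidec and Retn had differences below 0. None of 10 chondrocyte markers passed (limma, 7 at an unadjusted p under 0.05), but all 10 differences lay below 0. Their sums were 28237 to 35311 in CD73+CD105+ and 35535 to 41554 in CD73+CD105- cells. None of 11 macrophage and monocyte markers passed (limma, 2 at an unadjusted p under 0.05), with sums of 811 to 890 in CD73+CD105+ and 882 to 971 in CD73+CD105- cells. Neither did any of 6 megakaryocyte and platelet markers (limma, 1 at an unadjusted p under 0.05), with sums of 426 to 448 in CD73+CD105+ and 411 to 444 in CD73+CD105- cells. Arrays report no zeros. Olfactory and vomeronasal receptor genes (1190 genes) served as a guide to the level of genes unlikely to be used in marrow, and their 95th percentile, called the receptor threshold here, was 6.01. In both populations 7 of the macrophage markers lay below it, Ptprc (CD45), Csf1r and Adgre1 among them, as did 3 of the 6 platelet markers. All 10 chondrocyte markers lay above it in both.

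Of the 34 measured genes, 4 rose in CD73+CD105+ cells, 0 fell and 30 did not pass. The genes that rose were Vwf, the adhesive protein that tethers platelets (3.55-fold), Tfpi, the inhibitor of tissue factor (1.98-fold), Cfb, the protease of the alternative complement pathway (1.58-fold), and Serping1, the C1 inhibitor (1.43-fold). This is 11.8% of the measured list, against 1.82% of all genes tested (1.35% that rose and 0.466% that fell). By role, 1 of 9 measured complement components, 1 of 7 regulators and receptors, 2 of 14 coagulation genes and 0 of 4 fibrinolysis genes passed. The median difference of the 34 genes was 0.18, against -0.02 over all genes; without CD73+CD105+ replicate 2 it was 0.09, and over the other omissions of 1 array 0.13 to 0.23. Of the differences, 22 of the 34 (64.7%) lay above 0, against 44.4% over all genes. The 3 CD73+CD105+ arrays lay wholly above or wholly below the 3 CD73+CD105- arrays in 15 of the 34 genes (13 above and 2 below), or 44.1%, against 23.7% of all genes tested. At an unadjusted p under 0.05 there were 13 of the 34, against 17.7% of all genes. The list was chosen with earlier results of these data known, so these shares describe the list and not the cascades at large. Of 65 other measured genes of the cascades, given below, 0 passed in limma, and their median difference was -0.03.

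**Figure D1:**
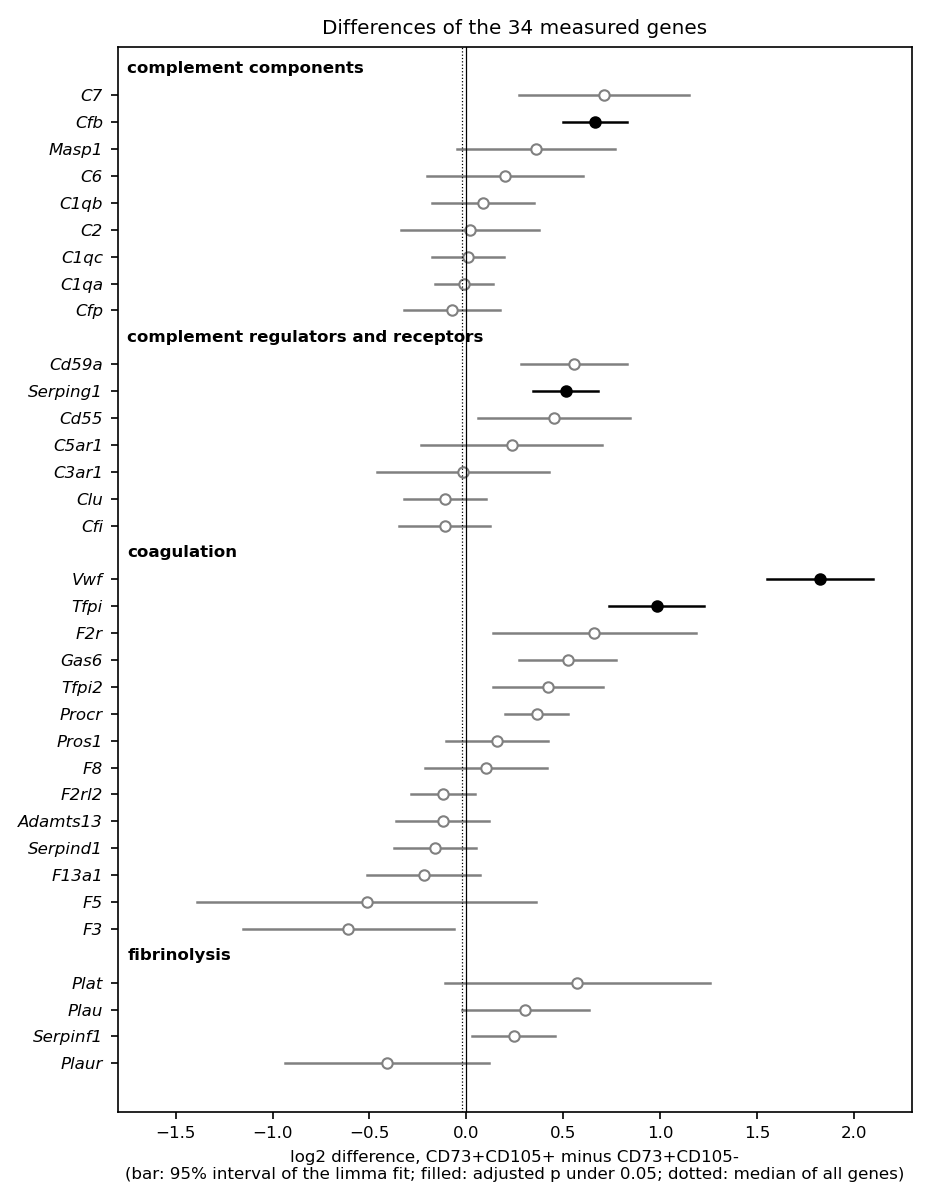
Log2 difference (CD73+CD105+ minus CD73+CD105-) of the 34 measured genes by role, with the 95% interval of the limma fit. Filled points are Cfb, Serping1, Vwf and Tfpi, the 4 genes past the threshold; F3 has the lowest difference, at -0.61, and the dotted line is the median of all genes, -0.02.

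Tfpi and Procr act at the surface of vessel lining; Procr did not pass and was chosen after its values were seen. The bases before their starts are shown so that their sequences can be read beside the values that follow. RefSeq promoter sequences were found for 27 of the 38 genes (31 starts, GRCm38.p6), and for Tfpi at 2 starts on the minus strand. Each line gives the 250 bases before a start, 5′ to 3′, at chr2:84476760-84477009 and chr2:84474175-84474424 on the minus strand for Tfpi and chr2:155750967-155751216 on the plus strand for Procr. Capitals mark 3 motifs searched on both strands: AGGAAG, a core bound by ETS factors, AGATAA, bound by GATA factors, and CACCC, bound by KLF factors. A match on the other strand appears as the reverse complement.
Tfpi, first start: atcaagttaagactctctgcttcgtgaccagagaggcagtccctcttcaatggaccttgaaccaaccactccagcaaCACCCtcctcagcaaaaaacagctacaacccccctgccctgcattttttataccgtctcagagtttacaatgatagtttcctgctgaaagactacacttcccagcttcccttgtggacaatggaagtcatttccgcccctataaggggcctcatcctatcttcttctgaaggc
Tfpi, second start: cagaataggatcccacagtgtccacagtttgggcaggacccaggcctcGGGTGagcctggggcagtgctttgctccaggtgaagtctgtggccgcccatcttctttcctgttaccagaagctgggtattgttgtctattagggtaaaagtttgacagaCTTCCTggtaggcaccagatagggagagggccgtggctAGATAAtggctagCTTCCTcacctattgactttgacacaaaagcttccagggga
Procr: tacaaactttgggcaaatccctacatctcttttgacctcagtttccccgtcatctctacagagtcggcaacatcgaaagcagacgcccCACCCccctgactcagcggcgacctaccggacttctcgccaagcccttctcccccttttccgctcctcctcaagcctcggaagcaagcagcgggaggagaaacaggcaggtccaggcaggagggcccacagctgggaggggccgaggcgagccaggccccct
The second start of Tfpi had 2 ETS matches, 1 GATA match and 1 KLF match, with no overlap between them. The first start of Tfpi and the start of Procr had 1 KLF match each and 0 of the other motifs in these windows. Over 32851 promoters of the same length, 29.5% held the ETS core, 9.99% the GATA motif and 52.0% the KLF motif, and over the 31 starts of the listed genes 10, 5 and 23 did. The matches describe letters in these windows and no binding was measured.

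Among the coagulation genes, Vwf had the largest difference of the whole list. Vwf, made by endothelial cells and megakaryocytes, was at 8.47, 8.09 and 8.35 in CD73+CD105+ replicates 1, 2 and 3, against 6.40, 6.41 and 6.63 in CD73+CD105- replicates 1, 2 and 3. Every CD73+CD105+ array lay more than 1 log2 unit above every CD73+CD105- array. The means were 8.30 ± 0.19 in CD73+CD105+ cells and 6.48 ± 0.13 in CD73+CD105- cells (SD, n = 3 each), a difference of 1.83 (SE 0.12, limma adjusted p = 0.000779). The difference passed in all 15 alternative settings, with an adjusted p of at most 0.0394. The endothelial and reticular stroma marker sums given above differed in the same direction as Vwf, Tfpi, Cfb and Serping1. So did the adipocyte sum, with and without Fabp4. The chondrocyte sums differed in the other direction, that of the listed genes with differences below 0, none of which passed. The part of these cell types in the differences was not tested. In sorted bulk RNA, more cells of a type and more RNA per cell cannot be told apart. Of the 6 platelet markers 0 passed; Itga2b, Itgb3 and Treml1 lay above the receptor threshold in both populations, with differences of 0.05, 0.07 and -0.13, and Pf4, Gp9 and Ppbp lay below it in both, with differences of 0.23, -0.21 and 0.55.

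Inhibitors of clotting gave the second difference of this role. Tfpi, which blocks tissue factor with factor VIIa and factor Xa, was at 7.21, 6.96 and 6.83 in CD73+CD105+ cells, against 6.03, 5.98 and 6.05 in CD73+CD105- cells. The groups did not overlap, and the CD73+CD105- arrays lay near the receptor threshold, so the fold may be understated. The difference was 0.98 (SE 0.10, limma adjusted p = 0.00784), with an SD of 0.20 among CD73+CD105+ arrays and 0.04 among CD73+CD105- arrays (n = 3 each). In replicates 2 and 3 alone it was 0.88 and did not pass (adjusted p = 0.107).

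Procr, Tfpi2, Pros1 and Serpind1, inhibitors of clotting or parts of the protein C system, did not pass, nor did Gas6 and Adamts13. Procr, the endothelial receptor for protein C, was at 7.82, 7.76 and 7.83 in CD73+CD105+ cells, against 7.42, 7.39 and 7.51 in CD73+CD105- cells. The arrays of each population were close together and the groups did not overlap, but the difference of 0.36 (SE 0.07) gave an adjusted p of 0.0516 in limma. It passed in 3 of 15 alternative settings. Gas6, a ligand of the TAM receptor kinases that resembles protein S in structure, was at 10.19, 9.91 and 10.10 in CD73+CD105+ cells, against 9.53, 9.41 and 9.70 in CD73+CD105- cells. Its groups were also apart, with a difference of 0.52 (SE 0.11, limma adjusted p = 0.0634). Tfpi2, a Kunitz-type protease inhibitor related to Tfpi, differed by 0.42 (adjusted p = 0.136). Pros1, protein S, the cofactor of activated protein C, was at 9.83, 9.53 and 9.60 in CD73+CD105+ cells and at 9.35, 9.47 and 9.66 in CD73+CD105- cells. These groups overlapped, and the difference of 0.16 had an interval of -0.11 to 0.42. Serpind1, heparin cofactor II, differed by -0.16 and Adamts13, the protease that trims Vwf multimers, by -0.12, and Adamts13 lay below the receptor threshold in both populations.

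Of the clotting factors F3, F5, F13a1 and F8, only F8 had a difference above 0, and none of them passed. F3, tissue factor, the cell-surface starter of clotting, was at 8.41, 8.62 and 7.71 in CD73+CD105+ cells, against 8.75, 9.10 and 8.71 in CD73+CD105- cells. All 3 CD73+CD105+ arrays lay below the CD73+CD105- arrays, but replicate 3 of CD73+CD105+ lay far below its fellows, and the difference of -0.61 (SE 0.23) did not pass (limma adjusted p = 0.239). F5, factor V, the cofactor of factor Xa, showed the same array at the bottom, with 8.36, 8.68 and 7.28 in CD73+CD105+ cells, against 8.59, 9.07 and 8.20 in CD73+CD105- cells. Its difference of -0.51 had an interval of -1.39 to 0.36. The array values of F3 and F5 are given because of this spread, and both genes were chosen for that after their values were seen. F13a1, the transglutaminase chain that cross-links fibrin, differed by -0.22 (adjusted p = 0.409) and F8, factor VIII, the cofactor of factor IXa, by 0.10 (adjusted p = 0.743).

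The thrombin receptor F2r (PAR1) averaged 8.60 ± 0.28 in the CD73+CD105+ arrays and 7.94 ± 0.42 in the CD73+CD105- arrays (SD, n = 3 each). Its groups did not overlap, yet the difference of 0.66 (SE 0.22) did not pass (limma adjusted p = 0.189). F2rl2 (PAR3), a thrombin-binding partner of other such receptors in mouse, differed by -0.12 and lay below the receptor threshold in both populations. The median of the 14 coagulation genes was 0.13, with 8 differences above 0. It was 0.04 and 0.22 with CD73+CD105+ replicate 1 or 3 left out, and 0.08 with CD73+CD105- replicate 1 left out.

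**Figure D2:**
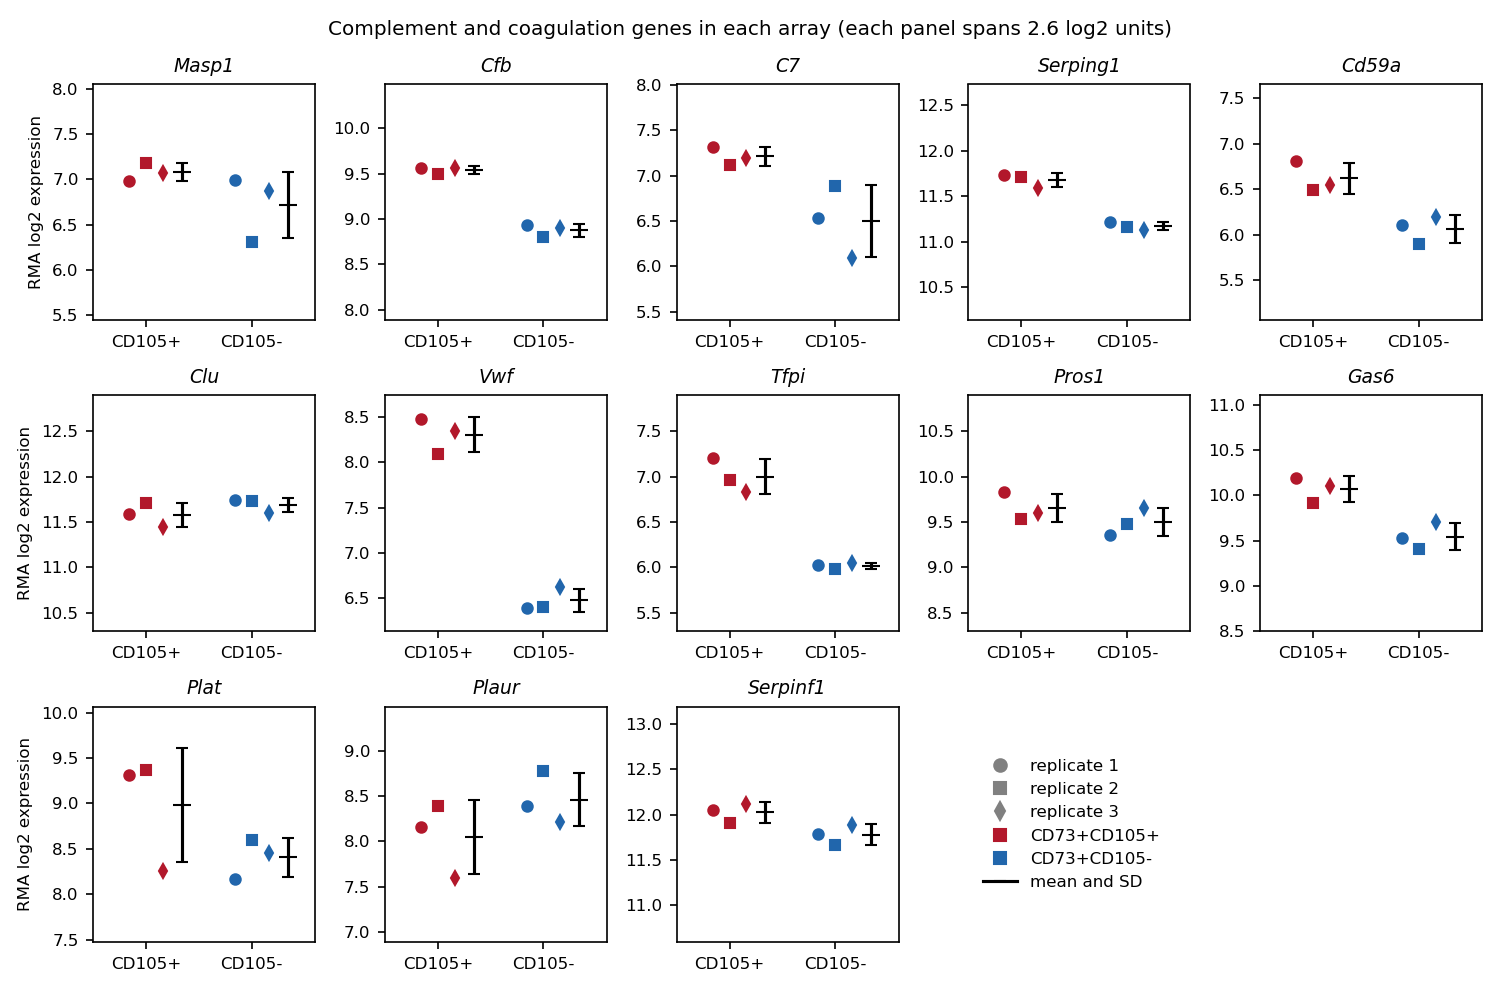
RMA log2 expression of 13 genes in each array, CD73+CD105+ (red) left of CD73+CD105- (blue), with the replicates as symbols and the mean and SD in black. Every panel spans the same number of log2 units; the Vwf, Tfpi, Cfb and Serping1 groups are apart, while for Plat and Plaur CD73+CD105+ replicate 3 is the lowest of its group.

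Among the complement components, the alternative pathway protease gene Cfb was the 1 of 9 that passed. Cfb was at 9.57, 9.49 and 9.56 in CD73+CD105+ replicates 1, 2 and 3, against 8.93, 8.80 and 8.90 in the CD73+CD105- replicates. The arrays of a population were close together and the populations were apart. The difference was 0.66 (SE 0.07, limma adjusted p = 0.00763), from means of 9.54 ± 0.04 in CD73+CD105+ cells and 8.88 ± 0.07 in CD73+CD105- cells (SD, n = 3 each). Without CD73+CD105+ replicate 1 the difference was 0.65 and the adjusted p 0.0507, and in replicates 2 and 3 alone they were 0.68 and 0.193.

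Of the terminal components that assemble into the membrane pore, C7 was at 7.32, 7.12 and 7.20 in CD73+CD105+ cells, against 6.54, 6.88 and 6.09 in CD73+CD105- cells. The CD73+CD105+ arrays lay above the others, but the CD73+CD105- arrays spread over most of a log2 unit. The difference of 0.71 (SE 0.19), larger than that of Cfb, did not pass (limma adjusted p = 0.114). C6, its neighbour in the pore, differed by 0.20 and lay below the receptor threshold in both populations. Masp1, a protease of the lectin pathway, was at 6.98, 7.18 and 7.07 in CD73+CD105+ cells and 6.99, 6.31 and 6.87 in CD73+CD105- cells. The Masp1 groups overlapped, and the difference of 0.36 had an interval of -0.05 to 0.77.

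The 3 C1q chains, C2 and Cfp had differences within 0.1 of 0. C1qa, C1qb and C1qc, the chains of the classical pathway's recognition protein and best known from macrophages, differed by -0.01, 0.09 and 0.01, and C1qb and C1qc lay below the receptor threshold in both populations. C1qa was close to that threshold, averaging 6.12 in the CD73+CD105+ arrays and 6.13 in the CD73+CD105- arrays. C2, the protease of the classical convertase, differed by 0.02 with an interval of -0.34 to 0.37, and Cfp, properdin, which stabilises the alternative convertase, by -0.07. The sign of C1qa, C1qb, C1qc, C2 and Cfp turned in at least 1 alternative setting. The component median was 0.09, with 7 of 9 differences above 0. It was 0.15, 0.03 and 0.20 with CD73+CD105+ replicate 1, 2 or 3 left out, and 0.18 with CD73+CD105- replicate 1 left out.

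Among the complement regulators, Serping1, which inhibits the proteases of the classical and lectin pathways and also plasma kallikrein, rose. Its values were 11.73, 11.72 and 11.59 in CD73+CD105+ cells, against 11.21, 11.17 and 11.13 in CD73+CD105- cells. The groups were apart, with a difference of 0.51 (SE 0.07, limma adjusted p = 0.0206). The call was lost without any 1 of CD73+CD105+ replicates 1 and 2 and CD73+CD105- replicates 1, 2 and 3 (adjusted p = 0.0521 to 0.11), while the difference stayed between 0.48 and 0.56 over all 6 omissions. With a term for replicate 1 in the fit the adjusted p was 0.0766.

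No membrane regulator passed. Cd59a, which blocks assembly of the membrane pore, was at 6.82, 6.49 and 6.55 in CD73+CD105+ cells, against 6.11, 5.89 and 6.19 in CD73+CD105- cells. Its groups did not overlap, and the difference of 0.56 (SE 0.12) had a limma adjusted p of 0.0674. Cd55, which dissociates the C3-cleaving enzyme complexes on cell surfaces, differed by 0.45 (SE 0.17, adjusted p = 0.227), again with the groups apart. Of the other cascade genes, the membrane regulators and receptors Cd59b, Cd46, Cr1l and Cr2 differed by -0.16, -0.06, -0.01 and -0.06. Cd46 and Cr2 lay below the receptor threshold in both populations. Clu, clusterin, a secreted chaperone that also binds terminal complement components, was at 11.59, 11.71 and 11.44 in CD73+CD105+ cells and 11.74, 11.73 and 11.60 in CD73+CD105- cells. The Clu groups overlapped, and the interval of its difference of -0.11 was -0.32 to 0.10. Cfi, the protease that inactivates C3b, differed by -0.11 at a level below the receptor threshold in both populations.

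Of the receptors for the complement peptides, C3ar1 lay below the receptor threshold in both populations and differed by -0.02 with an interval of -0.46 to 0.43, and its sign turned in 5 alternative settings. C5ar1 differed by 0.24 (adjusted p = 0.588), with overlapping groups. The median of the 7 regulators and receptors was 0.24, with 4 differences above 0. It was 0.15 and 0.12 with CD73+CD105+ replicate 1 or 2 left out, and 0.12 with CD73+CD105- replicate 3 left out.

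None of the 4 measured fibrinolysis genes passed in limma, and 1 had an unadjusted p under 0.05. Plat, tissue plasminogen activator, was at 9.32, 9.36 and 8.26 in CD73+CD105+ cells, against 8.17, 8.59 and 8.45 in CD73+CD105- cells. Replicates 1 and 2 of CD73+CD105+ lay above every CD73+CD105- array and replicate 3 lay among them, so that the difference of 0.57 (SE 0.29) did not pass (adjusted p = 0.359). Without CD73+CD105+ replicate 3 it was 0.93 and passed (adjusted p = 0.0467). Plau, urokinase, the other plasminogen activator, differed by 0.30 (adjusted p = 0.315), with the groups apart.

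Plaur, the receptor that holds urokinase at the cell surface, was at 8.16, 8.39 and 7.60 in CD73+CD105+ cells and 8.39, 8.78 and 8.21 in CD73+CD105- cells. The groups overlapped, and the difference of -0.41 had an interval of -0.94 to 0.12. Serpinf1, pigment epithelium-derived factor, a secreted serpin that does not inhibit proteases, was at 12.05, 11.90 and 12.12 in CD73+CD105+ cells, against 11.79, 11.66 and 11.89 in CD73+CD105- cells. Its CD73+CD105+ arrays lay just above the CD73+CD105- arrays, with a difference of 0.24 (SE 0.09, limma adjusted p = 0.229). The fibrinolysis median was 0.27, with 3 of 4 differences above 0.

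**Figure D3:**
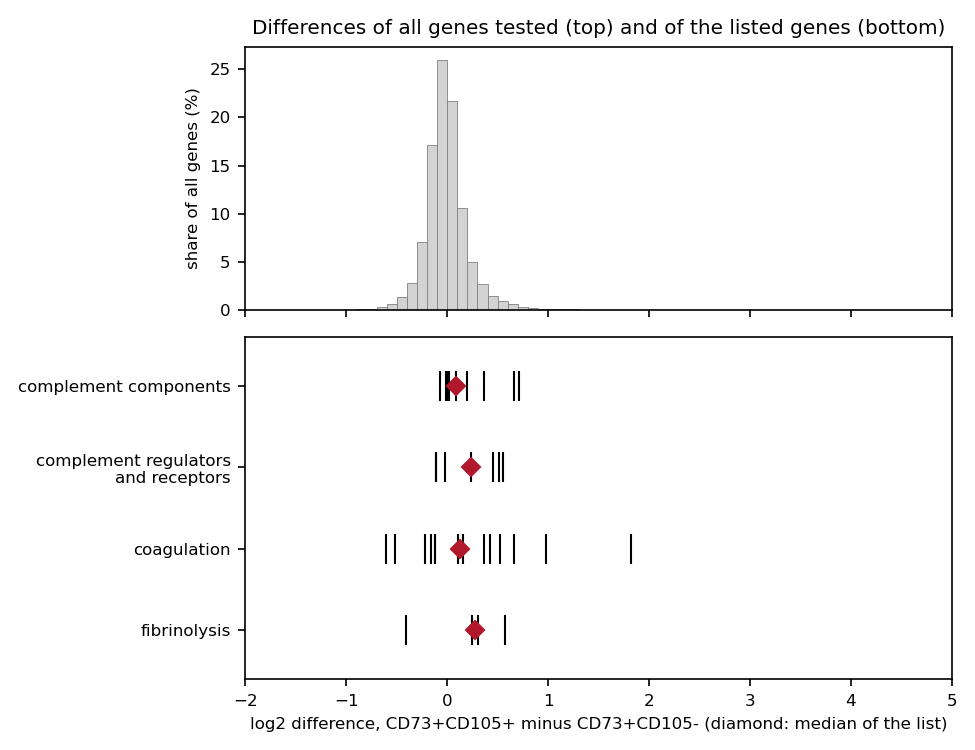
Top, share of all 19938 genes (%) by log2 difference, CD73+CD105+ minus CD73+CD105-. Bottom, each measured gene as a tick by role, with the median of each list as a diamond, from 0.09 for complement components to 0.27 for fibrinolysis; Vwf is the rightmost tick at 1.83.

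Other genes of the same cascades were read beside the list: of 70 listed, 65 were measured and none passed in either direction in limma, with a median difference of -0.03. An unadjusted p under 0.05 was found in 12 of the 65 (18.5%), against 17.7% of all genes. In 16 (24.6%) the groups did not overlap, 9 above and 7 below, against 23.7% of all genes. Both shares were near those of all genes. In the coagulation role the largest differences were those of Kng1 and Kng2, near-identical genes for kininogen, the precursor of bradykinin, whose probe sets may detect transcripts of both. Kng1 was at 8.27, 7.88 and 7.48 in CD73+CD105+ cells, against 6.19, 7.04 and 6.16 in CD73+CD105- cells. The groups were apart, and the difference of 1.41 (SE 0.28) had a limma adjusted p of 0.058. Kng2 differed by 0.89 (adjusted p = 0.0907).

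In the complement component role C1s1 and C1s2, 2 copies of the protease that C1 inhibitor blocks, differed by 0.59 (adjusted p = 0.0901) and 0.38 (adjusted p = 0.151), and they too may share probes. Among the regulators C4bp, a plasma inhibitor of the classical convertase, differed by -0.24 (adjusted p = 0.228) and Cpn2, the regulatory subunit of the peptidase that inactivates complement peptides, by -0.24 (adjusted p = 0.329), both below the receptor threshold. In fibrinolysis A2m, a broad protease trap, differed by -0.47 (adjusted p = 0.541) and Serpinf2, the plasmin inhibitor, by -0.25 (adjusted p = 0.127). Thbd, thrombomodulin, the thrombin receptor of vessel lining that activates protein C, was chosen after its values were seen, and its difference of 0.345 did not pass (adjusted p = 0.18).

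**Figure D4:**
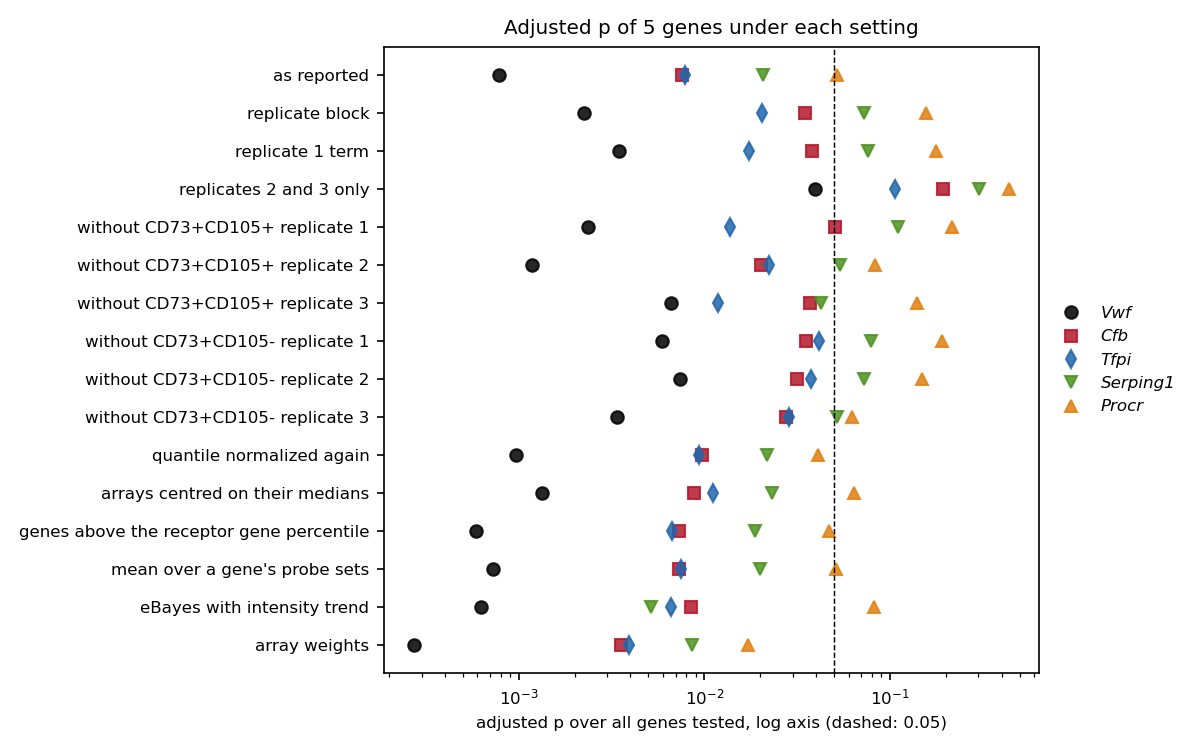
Adjusted p over all genes tested (log axis) of Vwf, Cfb, Tfpi, Serping1 and Procr as reported and under 15 alternative settings, with the threshold of 0.05 dashed. Vwf lies left of the threshold in every setting, Tfpi in 14, Cfb in 13, Serping1 in 7 and Procr in 3.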

How the data were processed

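The 6 arrays (3 CD73+CD105+ and 3 CD73+CD105-) were used as deposited by the authors: log2 values of 35556 probe sets made with RMA (per the submitters' processing notes). The version of the software, the authors' annotation and their genome build were not given in the sources used here. A platform annotation gave 21789 probe sets 1 gene symbol, 1621 several and 12146 none, and 19938 genes were tested with no filter on dim genes. Of the 21789, 21698 matched RefSeq by Entrez ID, and 0 symbols changed. Near background RMA shrinks differences, which can make the folds of dim genes too small.

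limma 3.58.1 (lmFit and eBayes, two-sided, R 4.3.3) was fitted over all genes with no block, with Benjamini-Hochberg adjustment and a threshold of 0.05. Intervals are 95% intervals of that fit, and an exact permutation test of 3 against 3 could not go below 0.1. The fit was tested on simulated data with independent noise on each array. It recovered 83% of genes changed by 1 log2 unit and 99% of those changed by 2, with 8 false calls among 190. The simulation did not hold the opposite deviations of the replicate 1 samples described below, so it could not test the p-values under them. Alternatives were the replicate block, a replicate 1 term, replicates left out, other scaling, a filter on dim genes, the mean over probe sets, an intensity trend and array weights. The genes, the cascade and marker lists and the alternatives were chosen with earlier results of these data known. Named genes followed a rule: array values are given for genes past the threshold and, per role, the 2 largest differences and 2 highest means, and for the other cascade genes the 2 largest differences per role. F3, F5, Procr, Thbd and Fgg fall outside it and were chosen after their values were seen. Cd59b, Cd46, Cr1l and Cr2 also fall outside it.

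The mean of the replicate 1 arrays minus the mean of the other 4 had an SD of 0.0423 across the genes tested. In the 8 other cross-population pairs this SD was at least 0.122, and no label describes such a balance. Deviations of same-numbered samples correlated at -0.88, 0.0066 and 0.10 (replicates 1, 2 and 3, across genes), so the numbers were not taken to pair samples. The fit with no block takes the 6 samples as independent. The opposite deviations of the replicate 1 samples put that in doubt, so its p-values are approximate.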

Additional observations from a re-analysis of the deposited data

How the results depend on the processing

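No measured listed gene fell past the threshold under any of the 15 alternatives. The 4 genes that rose kept their direction under all 15, but this was largely fixed in advance. Their groups did not overlap, so omitting or weighting arrays could not turn the sign. The replicate block, replicate 1 term, dim-gene filter, mean over probe sets and intensity trend left their differences unchanged. With the replicate block, which no label says pairs samples, 215 genes differed over all genes, against 363 as reported, and 3 of the listed genes rose; the regulators and receptors then held 0 (Serping1 adjusted p = 0.0727), and no other call on the listed genes changed. A replicate 1 term left 101 genes, with 0 regulators and receptors. Replicates 2 and 3 alone left 29 genes and 1 listed gene, Vwf: 0 components, 0 regulators and receptors and 1 coagulation gene, with a component median of 0.24. Over genes above the receptor threshold the medians were 0.19 for components, 0.45 for regulators and receptors and 0.30 for the whole list, the last a comparison added after the data were seen. Array weights gave 1331 genes and 9 listed genes: 2 components, 2 regulators and receptors and 5 coagulation genes, the added ones being C7, Cd59a, Procr, Tfpi2 and Gas6. Leaving out 1 array gave 86 to 293 genes (86 without CD73+CD105+ replicate 1, 169 without its replicate 3, 87 and 150 without CD73+CD105- replicates 1 and 2) and 2 to 5 listed genes, with 0 to 1 components, 0 to 1 regulators and receptors, 2 coagulation genes and 0 to 1 fibrinolysis genes (Plat). The medians then ranged from 0.0285 to 0.196 for components, 0.12 to 0.34 for regulators and receptors, 0.04 to 0.22 for coagulation, 0.22 to 0.31 for fibrinolysis and 0.09 to 0.23 for the whole list. Procr passed after renewed quantile normalization (adjusted p = 0.0411) and over genes above the receptor threshold (0.0471). Settings that leave out arrays rest on fewer samples, and other causes were not tested.

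Differences near 0 changed sign in some settings, and none of these passed. Over the arrays left out, C1qa ranged from -0.0277 to 0.0129, C1qb from -0.0146 to 0.176, C1qc from -0.0368 to 0.0577, C2 from -0.0698 to 0.196, Cfp from -0.17 to 0.0044 and C3ar1 from -0.18 to 0.13. Array weights gave 0.0095 for C1qa, -0.0173 for C1qb, -0.0534 for C1qc and 0.198 for C3ar1. Centring on medians gave -0.0008 for C1qc and renewed quantile normalization 0.0026 for C3ar1. Replicates 2 and 3 alone gave -0.11 for C2, -0.0256 for F8, -0.0011 for Pros1 and 0.0245 for Adamts13.

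No detection calls were made without scanner files; 7 of the 34 measured genes, 3 of them components, lay under the receptor threshold in each population.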

Other observations

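Several clotting and clot-dissolving genes, named here after their values were seen, had their lowest CD73+CD105+ value in replicate 3. F3, F5, Plat and Plaur were at 7.71, 7.28, 8.26 and 7.60 in that array, against at least 8.41, 8.36, 9.32 and 8.16 in CD73+CD105+ replicates 1 and 2. Among the other cascade genes, Fgg, the fibrinogen gamma chain, was at 6.96 there and at 8.05 and 8.35 in replicates 1 and 2, and A2m was at 7.10 there and at 8.01 and 8.13. The CD73+CD105- replicate 3 array was also the lowest of its group for F3 (8.71), F5 (8.20), Plaur (8.21) and A2m (7.76), but not for Plat or Fgg, and replicate 2 was the highest of both groups for all 6 genes. Vwf did not share this order, with 8.35 in replicate 3 and 8.09 in replicate 2. F2r, Serpinf1 and Procr had their highest CD73+CD105+ value in replicate 3, at 8.92, 12.12 and 7.83. Over the 34 measured genes, replicate 3 was the lowest of the CD73+CD105+ arrays in 15, and over all genes in 34.1%. The cause was not tested.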
